A study of Mus musculus with 6 samples.

Results

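Interferon-stimulated genes were followed in liver progenitor-like cells (LPCs) grown from 3 kinds of mouse liver cell. The set held 33 listed symbols, of which 31 had a row in all 6 count tables, out of 20573 genes shared by those tables. Mx1 and Mx2, a pair of antiviral GTPases on the list, were not analysed here. The 31 genes fell into 7 groups by role: transcription (6), the ISG15 system (4), IFIT proteins (4), guanylate-binding proteins (2), other effectors (7), PARP enzymes with their partner Dtx3l (4) and others (4).

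RNA was sequenced from 3 groups of 2 libraries, all from C57BL/6 mice, with an age of 6 to 8 weeks in the labels, and all grown in Transition and Expansion Medium (TEM). Bec_LPCs were wild type and grew out of pieces of intrahepatic bile duct in matrigel over 1 to 2 passages, after which single cells were sorted; the series' design text calls them Epcam+. Hep_LPCs came from hepatocytes of ROSA26tdTomato mice given AAV8-TBG-Cre, an adeno-associated virus whose TBG promoter drives Cre in hepatocytes. NPC_LPCs came from non-parenchymal cells of AlbCreERT/R26GFP mice, in which the albumin promoter drives an inducible Cre. Genotype, virus and cell of origin therefore cannot be told apart in these groups. No label ties a replicate to its own animal or culture. All p-values thus reflect only the spread among these libraries, which may be technical.

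Type I interferons bind the receptor Ifnar1 and Ifnar2, whose kinases Jak1 and Tyk2 phosphorylate STAT proteins. The factor ISGF3, which includes Stat2 and Irf9, binds interferon-stimulated response elements, while STAT complexes formed after interferon gamma bind gamma-activated sites. The induced genes include sensors, factors that amplify the response such as Irf7, and proteins that act on viral RNA, entry and release.

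Each library held 17575998 to 22985844 counts. Bec_LPCs replicates agreed most closely, with a median absolute log2 ratio over all genes of 0.09, against 0.38 in Hep_LPCs and 0.33 in NPC_LPCs. Hep_LPCs replicate 2 stood apart in the Y-linked gene Ddx3y, with 1 read, against 60.4 to 101.6 CPM, the read count scaled to library size after TMM normalisation, in the other 5 libraries. The biliary markers Krt19 and Sox9 had at least 83.7 CPM in every library. Krt7, also biliary, had 1.5 and 17.7 CPM in NPC_LPCs and 108.7 to 364.7 CPM in the other libraries. Of the hepatocyte markers, Alb had at most 41 reads, and Cyp2e1 and Tat had 0 reads in all 6. The hepatocyte factor Hnf4a had 125.5 and 103.8 CPM in Bec_LPCs, 247.8 and 262.6 CPM in Hep_LPCs, and 28.8 and 51.2 CPM in NPC_LPCs. Epcam had 59.0 and 65.7 CPM in Bec_LPCs, 0.351 and 1.84 CPM in Hep_LPCs and 0.115 and 0.61 CPM in NPC_LPCs. The Bec_LPCs tables were laid out differently, so a difference in counting and a difference between groups cannot be told apart wherever Bec_LPCs are compared.

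Promoter sequence of 7 genes with a match to the response element core and of 2 with a match to the gamma-activated core is shown first, since these letters can be read beside the levels that follow. The search took 250 bases before to 49 bases after each annotated start, from RefSeq on GRCm38.p6 (mm10). The response element core was GAAA, any 2 bases and GAAA, on either strand, so that it also reads TTTC, any 2 bases and TTTC. The gamma-activated site core was TTC, any 3 bases and GAA. Of the 31 genes 26 had a promoter entry, and Parp9, Usp18, Rtp4, Ifi27 and Parp14 had none. Some genes had several promoter windows, and a gene was counted if any of them held a match. The response element core was found in 10 of 26 genes (38.5%), against 1079 of all 27025 genes with an entry (3.99%). The gamma-activated core was found in 6 of 26 (23.1%), against 2582 of 27025 (9.55%). The lines below give 60 bases of 9 promoters on the gene's strand, 5′ to 3′. Capitals mark the response element core in Isg15 (chr4:156200852-156200911, minus strand), Ifit1 (chr19:34640770-34640829, plus strand), Ifit3 (chr19:34583358-34583417, plus strand), Gbp3 (chr3:142559984-142560043, plus strand), Ifitm3 (chr7:141010698-141010757, minus strand), Bst2 (chr8:71537558-71537617, minus strand) and Stat2 (chr10:128270261-128270320, plus strand). They mark the gamma-activated core in Ifit2 (chr19:34550444-34550503, plus strand) and Isg20 (chr7:78913336-78913395, plus strand), shown for contrast since their levels differed little between the NPC_LPCs replicates.
Isg15: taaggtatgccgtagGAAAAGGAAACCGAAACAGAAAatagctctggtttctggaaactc
Ifit1: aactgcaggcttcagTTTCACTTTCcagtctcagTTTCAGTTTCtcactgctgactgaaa
Ifit3: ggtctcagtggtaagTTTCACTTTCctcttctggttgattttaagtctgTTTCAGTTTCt
Gbp3: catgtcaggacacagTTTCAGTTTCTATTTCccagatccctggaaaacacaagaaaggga
Ifitm3: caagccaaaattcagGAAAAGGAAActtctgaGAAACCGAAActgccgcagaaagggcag
Bst2: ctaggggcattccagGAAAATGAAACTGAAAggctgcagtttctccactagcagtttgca
Stat2: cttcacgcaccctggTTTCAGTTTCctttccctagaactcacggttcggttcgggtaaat
Ifit2: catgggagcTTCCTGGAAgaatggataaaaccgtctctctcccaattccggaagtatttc
Isg20: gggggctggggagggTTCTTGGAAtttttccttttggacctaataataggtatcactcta

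Isg15 held 3 overlapping matches of the response element core, and Ifit1, Ifit3, Ifit3b, Gbp3, Ifitm3 and Bst2 held 2 each. Gbp2, Rsad2 and Stat2 held 1 each. The gamma-activated core was in Ifit2, Isg20, Irf1, Ifi35, Bst2 and Ifitm3, and in Bst2 and Ifitm3 it overlapped a response element core. In that order, NPC_LPCs replicate 2 was 0.984, 1.22, 1.6, 2.61, 2.6 and 11.3 times replicate 1. Ifit2 and Isg20 had the lowest ratios of the genes with this core and were printed above for that reason, so this says nothing about the core. A match is a run of letters and not a site shown to be bound, and genes with no match have only lacked these letters in this window. For the matching windows of Bst2, Stat2 and Ifit3b, bases just past the RefSeq start matched no GENCODE transcript of the gene. Distances from the start are less certain for these genes.

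**Figure D1:**
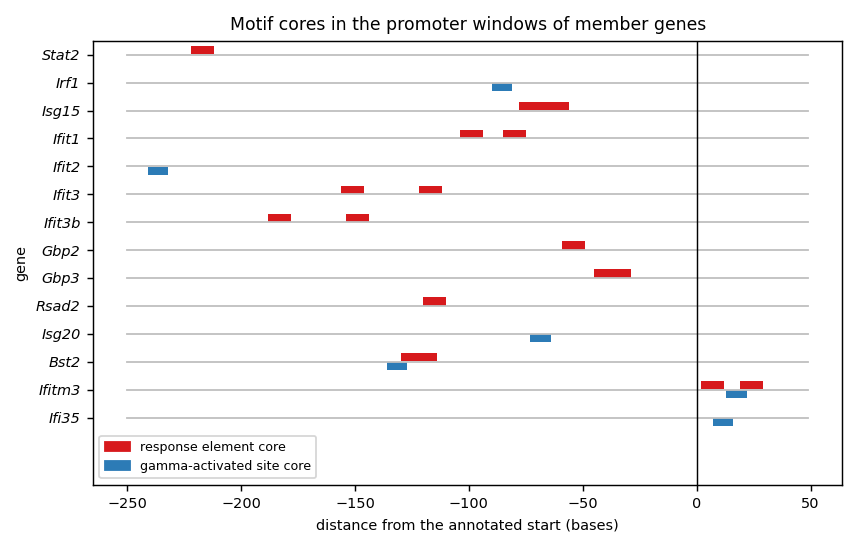
Positions of both motif cores in the promoters of the 14 member genes that hold either, by distance in bases from the annotated start (vertical line); grey lines are the bases searched. The response element cores of Isg15, Gbp3 and Bst2 run into each other as single blocks, while Ifit1, Ifit3 and Ifit3b each show 2 separate ones.

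Levels were highest in NPC_LPCs and lowest in Hep_LPCs, with Bec_LPCs between. The 31 genes summed to 654 and 601 CPM in Bec_LPCs, 479 and 421 CPM in Hep_LPCs, and 1337 and 3964 CPM in NPC_LPCs (replicates 1 and 2, the order used throughout). The median gene had 13.0 and 10.2 CPM in Bec_LPCs, 4.86 and 2.25 CPM in Hep_LPCs, and 17.3 and 104.2 CPM in NPC_LPCs. NPC_LPCs replicate 2 was the highest of the 6 libraries for 28 of 31 genes, against 12.7% of all 12868 genes tested in the 6 libraries. Ifit2, Isg20 and Ifi27 were the exceptions. Both NPC_LPCs libraries lay above the other 4 for 26 genes, against 10.1% of all genes, and both Hep_LPCs libraries lay below the other 4 for 23, against 21.2%. The full order, every NPC_LPCs library above every Bec_LPCs library and those above every Hep_LPCs library, was met by 20 genes, against 4.17% of all genes. In bulk RNA, fewer cells with high levels and less RNA per cell cannot be told apart.

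**Figure D2:**
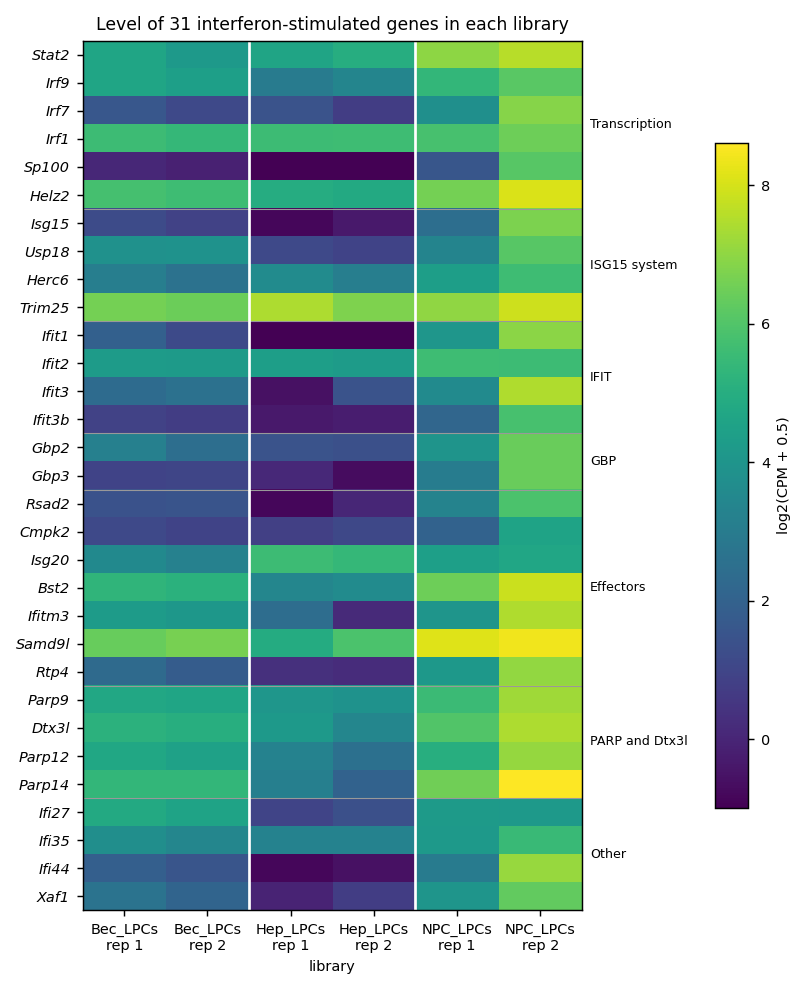
Level of each of the 31 genes in each library as log2(CPM + 0.5), grouped by role, with Bec_LPCs, Hep_LPCs and NPC_LPCs from left to right. The right-hand column, NPC_LPCs replicate 2, is the brightest in 28 rows, and the Hep_LPCs columns hold the darkest cells, with Ifit1 and Sp100 at 0 reads.

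The NPC_LPCs libraries differed from each other more than any other pair of replicates in these genes. At a 2-fold difference on log2(CPM + 0.5), 23 of 31 genes were higher in replicate 2 than in replicate 1 and 0 were lower, against 5.99% higher and 6.57% lower of all 12868 genes. The median gene was 4.3-fold higher in NPC_LPCs replicate 2, while the median over all genes was 0 on the log2 scale. In Hep_LPCs 1 gene was 2-fold higher and 2 were 2-fold lower in replicate 2, against 6.53% and 5.32% of all genes. In Bec_LPCs 0 genes passed 2-fold either way, against 0.0777% higher and 0.155% lower. The standard deviation of a group exceeded its mean for 0 of the 31 genes in Bec_LPCs, 3 in Hep_LPCs and 13 in NPC_LPCs. A pair of libraries gives no test, so the replicates are described apart in what follows.

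**Figure D3:**
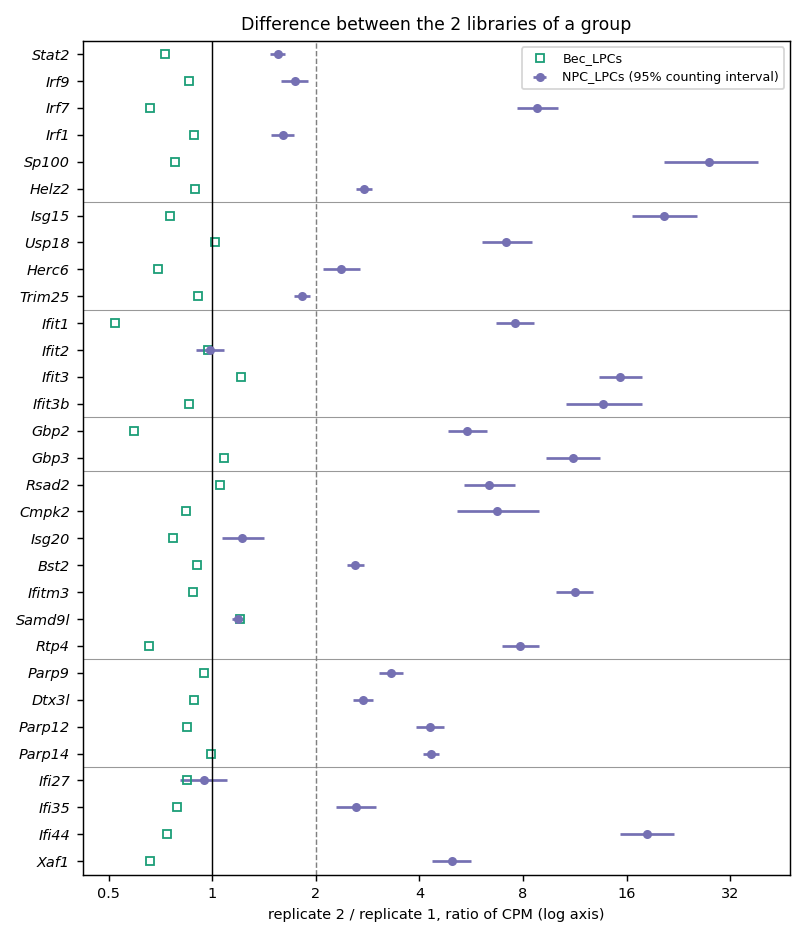
Ratio of replicate 2 to replicate 1 in CPM (log axis) for each gene in NPC_LPCs (filled circles, with 95% exact intervals for counting error only) and Bec_LPCs (open squares). The NPC_LPCs ratios run up to 27.8 for Sp100 while Bec_LPCs stay within 2-fold (dashed line at 2), and Ifit2, Ifi27, Samd9l and Isg20 lie near 1 in NPC_LPCs.

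Among the transcription genes, the ISGF3 subunits were present in every library. Stat2 (chr10:128270559-128292849), the ISGF3 subunit with the transactivation domain, had 24.7 and 18.0 CPM in Bec_LPCs, 24.1 and 31.7 CPM in Hep_LPCs, and 125.0 and 193 CPM in NPC_LPCs. Both NPC_LPCs libraries lay far above the other 4, and Stat2 had the smallest replicate ratio of its group, 1.55 (95% counting interval 1.47 to 1.63). Irf9 (chr14:55603571-55610030), the DNA-binding subunit, had 24.5 and 21.0 CPM in Bec_LPCs, 7.43 and 9.97 CPM in Hep_LPCs, and 40.9 and 71.1 CPM in NPC_LPCs. No groups overlapped for Irf9, and the order of groups was NPC_LPCs, Bec_LPCs and Hep_LPCs from high to low.

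Irf7 (chr7:141262706-141266481), the factor that amplifies interferon production, had 2.53 and 1.67 CPM in Bec_LPCs, 2.28 and 1.19 CPM in Hep_LPCs, and 13.3 and 117 CPM in NPC_LPCs. Bec_LPCs and Hep_LPCs overlapped, and NPC_LPCs replicate 2 was 8.79 times replicate 1 (7.68 to 10.1). Irf1, a factor induced by interferon gamma and by type I interferon, had 47.8 and 42.4 CPM in Bec_LPCs, 47.9 and 48.6 CPM in Hep_LPCs, and 56.5 and 90.5 CPM in NPC_LPCs. It had the narrowest relative range over the 6 libraries of this group of genes. Sp100, a component of nuclear bodies, had 0.549 and 0.429 CPM in Bec_LPCs, 0 reads in both Hep_LPCs libraries, and 2.48 and 69.0 CPM in NPC_LPCs. Its replicate ratio of 27.8 (20.5 to 38.6) was the widest of the 31 genes, and 4 annotated pseudogenes are near-identical to stretches of it, so its counts are uncertain. Helz2, a helicase and transcriptional coactivator, was the remaining member of the group, with 27.9 to 54.5 CPM outside NPC_LPCs and a replicate ratio of 2.76.

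The ISG15 system attaches a ubiquitin-like protein to its targets and removes it. Isg15 (chr4:156199424-156200818), that modifier, had 1.81 and 1.37 CPM in Bec_LPCs, 0.0585 and 0.297 CPM in Hep_LPCs, and 5.08 and 104 CPM in NPC_LPCs. The Hep_LPCs levels rest on 1 and 5 reads, and NPC_LPCs replicate 2 was 20.5 times replicate 1 (16.6 to 25.7). A processed pseudogene shares 95.2% identity with Isg15 over 482 bases, so a few reads may be shared. Usp18 (chr6:121245906-121270917), the protease that removes ISG15 and dampens receptor signalling, had 14.1 and 14.3 CPM in Bec_LPCs, 1.7 and 1.42 CPM in Hep_LPCs, and 9.58 and 68.7 CPM in NPC_LPCs. It was 1 of 3 genes, with Ifitm3 and Ifi27, for which NPC_LPCs replicate 1 did not lie above both Bec_LPCs libraries, an order met by the other 28 and by 44.8% of all genes.

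Herc6, in mouse the main ISG15 ligase, had 8.14 and 5.66 CPM in Bec_LPCs, 12.0 and 8.07 CPM in Hep_LPCs, and 20.7 and 49.1 CPM in NPC_LPCs. Bec_LPCs and Hep_LPCs overlapped by a narrow margin, below both NPC_LPCs libraries. Trim25, a ubiquitin ligase of the RIG-I pathway, had 97.4 and 88.3 CPM in Bec_LPCs, 172 and 107 CPM in Hep_LPCs, and 129 and 234 CPM in NPC_LPCs. Hep_LPCs and NPC_LPCs overlapped, and Trim25 had the smallest replicate ratio of the ISG15 system, 1.82 (1.73 to 1.92).

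The IFIT proteins bind foreign RNA ends, and their 4 genes lie side by side on chromosome 19. Ifit1 (chr19:34640871-34650009) had 3.38 and 1.76 CPM in Bec_LPCs, 0 reads in both Hep_LPCs libraries, and 16.3 and 123 CPM in NPC_LPCs. Ifit3 (chr19:34583531-34588731), which stabilises IFIT complexes, had 4.6 and 5.57 CPM in Bec_LPCs, 0.176 and 2.25 CPM in Hep_LPCs, and 11.5 and 176 CPM in NPC_LPCs. NPC_LPCs replicate 2 was 7.58 times replicate 1 for Ifit1 (6.69 to 8.6) and 15.3 times for Ifit3 (13.3 to 17.7). The Ifit3 transcript is 97.8% identical to that of Ifit3b over 1700 bases and their promoters share the 60 bases printed for Ifit3, so reads may be split between them. Ifit3b had 1.16 to 1.35 CPM in Bec_LPCs, 0.293 to 0.356 CPM in Hep_LPCs and a replicate ratio of 13.7 in NPC_LPCs.

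Ifit2 (chr19:34550694-34576419), the neighbour of Ifit3, did not share that split. It had 19.0 and 18.6 CPM in Bec_LPCs, 20.5 and 19.0 CPM in Hep_LPCs, and 48.8 and 48.1 CPM in NPC_LPCs. The NPC_LPCs replicates gave a ratio of 0.984, with a counting interval of 0.896 to 1.08, and both lay above all 4 other libraries.

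The guanylate-binding proteins are large GTPases that coat the vacuoles of pathogens. Gbp2 had 8.61 and 5.1 CPM in Bec_LPCs, 2.28 and 2.02 CPM in Hep_LPCs, and 15.4 and 84.9 CPM in NPC_LPCs. Gbp3, next to it on chromosome 3, had 1.39 and 1.5 CPM in Bec_LPCs, 0.585 and 0.119 CPM in Hep_LPCs, and 7.62 and 85.0 CPM in NPC_LPCs. Neither gene overlapped between groups, and the NPC_LPCs replicate ratio was 5.51 for Gbp2 and 11.2 for Gbp3.

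Among the other effectors, Bst2 (chr8:71534255-71537456), the tetherin that holds budding virus at the cell surface, had 38.4 and 34.6 CPM in Bec_LPCs, 10.2 and 12.0 CPM in Hep_LPCs, and 89.4 and 233 CPM in NPC_LPCs. The groups stood apart in the order NPC_LPCs, Bec_LPCs and Hep_LPCs. Ifitm3, a membrane protein that blocks viral entry, had 19.0 and 16.7 CPM in Bec_LPCs, 4.86 and 0.593 CPM in Hep_LPCs, and 15.6 and 177 CPM in NPC_LPCs. NPC_LPCs replicate 1 lay below both Bec_LPCs libraries while replicate 2 was 11.3 times higher (9.98 to 12.8). Rsad2, the radical SAM enzyme viperin, had 2.19 and 2.31 CPM in Bec_LPCs, 0.0585 and 0.534 CPM in Hep_LPCs, and 9.3 and 59.2 CPM in NPC_LPCs. The Hep_LPCs levels of Rsad2 rest on 1 and 9 reads. Its neighbour on chromosome 12, Cmpk2, a mitochondrial nucleotide kinase, overlapped between Bec_LPCs and Hep_LPCs and had a replicate ratio of 6.73 in NPC_LPCs.

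Samd9l (chr6:3372257-3399572), a growth-limiting antiviral protein, had 82.8 and 99.1 CPM in Bec_LPCs, 30.0 and 58.3 CPM in Hep_LPCs, and 287 and 340.4 CPM in NPC_LPCs. It was high in both NPC_LPCs libraries, with the smallest replicate ratio among the effectors at 1.19 (1.14 to 1.23). Rtp4, a chaperone of G-protein-coupled receptors, had 4.52 and 2.96 CPM in Bec_LPCs, 0.761 and 0.653 CPM in Hep_LPCs, and 16.9 and 132 CPM in NPC_LPCs. Isg20 (chr7:78913424-78920396), an exonuclease, had another order of groups, with 11.4 and 8.74 CPM in Bec_LPCs, 48.0 and 41.4 CPM in Hep_LPCs, and 20.8 and 25.5 CPM in NPC_LPCs. It was highest in Hep_LPCs and lowest in Bec_LPCs, with no overlap between groups.

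Parp9, Dtx3l and Parp14 lie together on chromosome 16, and Parp9 and Dtx3l, whose products work as a complex, overlap in 9.4% and 8.0% of their exonic lengths. Parp14, a mono-ADP-ribosyltransferase, had 40.8 and 40.4 CPM in Bec_LPCs, 8.37 and 3.56 CPM in Hep_LPCs, and 90.9 and 392 CPM in NPC_LPCs. Dtx3l, a ubiquitin ligase, had 36.0 and 31.8 CPM in Bec_LPCs, 17.3 and 10.1 CPM in Hep_LPCs, and 63.5 and 174 CPM in NPC_LPCs. Parp9 and Parp12, relatives of Parp14, had 22.1 to 26.4 CPM in Bec_LPCs, 5.34 to 16.0 CPM in Hep_LPCs, and 32.3 to 153 CPM in NPC_LPCs. All 4 genes of the group kept the order NPC_LPCs, Bec_LPCs and Hep_LPCs without overlap, and their replicate ratios in NPC_LPCs ran from 2.74 for Dtx3l to 4.31 for Parp14.

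Of the remaining genes, Ifi27 (chr12:103434211-103440239), a mitochondrial protein, had 28.1 and 23.7 CPM in Bec_LPCs, 1.46 and 2.02 CPM in Hep_LPCs, and 18.5 and 17.4 CPM in NPC_LPCs. It was the only one of the 31 genes for which both Bec_LPCs libraries lay above both NPC_LPCs libraries, and its replicate ratio in NPC_LPCs was the lowest of all, 0.944 (0.808 to 1.1). Ifi44, a cytoplasmic antiviral protein, had 3.25 and 2.4 CPM in Bec_LPCs, 0.0585 and 0.178 CPM in Hep_LPCs (1 and 3 reads), and 7.56 and 138 CPM in NPC_LPCs. Ifi35 and Xaf1 were lowest in Hep_LPCs and had replicate ratios of 2.61 and 4.96 in NPC_LPCs.

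Levels can be set against each other between genes only per length, which the deposited FPKM (fragments scaled for gene length and depth) of Hep_LPCs and NPC_LPCs allows. In Hep_LPCs replicate 1 the highest FPKM were 24.7 for Trim25, 14.6 for Bst2 and 10.6 for Irf1, and in replicate 2 they were 17.5 for Bst2, 15.6 for Trim25 and 11.4 for Irf1. In NPC_LPCs replicate 1 they were 127 for Bst2, 31.4 for Samd9l and 29.5 for Ifitm3. In NPC_LPCs replicate 2 they were 350.3 for Ifitm3, 331 for Bst2 and 157 for Isg15. Thus Bst2 was among the top 3 in all 4 libraries, and Isg15 entered them only in NPC_LPCs replicate 2. The median member had 1.03 and 0.971 FPKM in Hep_LPCs, against 5.6 and 26.5 FPKM in NPC_LPCs.

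The growth protocol gives the differences between LPCs of hepatocyte and of non-parenchymal origin as the purpose of sequencing. In Hep_LPCs against NPC_LPCs, 4 of the 31 genes fell and 0 rose by edgeR's quasi-likelihood test at a Benjamini-Hochberg adjusted p under 0.05, that is 12.9%, against 0.428% lower and 0.354% higher of all 12159 genes tested. They were Ifi27 (log2 fold change -3.38 ± 0.43 SE, adjusted p = 0.0464), Stat2 (-2.53 ± 0.33, 0.0481), Bst2 (-3.88 ± 0.53, 0.0481) and Samd9l (-2.85 ± 0.39, 0.0484), each lower in both Hep_LPCs libraries than in either NPC_LPCs library. At an unadjusted p under 0.05, 28 genes were lower and 1, Isg20, was higher (0.92 ± 0.28, adjusted p = 0.146). Of all 12159 genes, 1414 were lower and 1281 higher at that threshold. The 2 groups did not overlap for 29 genes that were lower and 1 that was higher in Hep_LPCs, against 27.7% and 28.9% of all genes. The median log2 fold change was -3.88 over the 31 genes and 0 over all genes, and it was also -3.88 with the genes at 0 reads set to their bounds.

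The largest differences belonged to genes that did not pass this test and whose NPC_LPCs replicates were far apart. Ifit1 was at least 392-fold lower in Hep_LPCs than in NPC_LPCs and Sp100 at least 201-fold lower, both against a floor of 3 reads per library, with adjusted p of 0.0855 and 0.14 from edgeR. Isg15 had 6 reads in the Hep_LPCs libraries together, against 2137 in NPC_LPCs, a ratio of 0.00306 (95% counting interval 0.00112 to 0.00667). Ifi44 had 4 reads, against 2852, a ratio of 0.00153 (0.000416 to 0.00392). These sizes rest on NPC_LPCs replicate 2. Against NPC_LPCs replicate 1 alone, an alternative added after the data were seen, Ifit1 was at least 91.5-fold and Sp100 at least 13.9-fold lower in Hep_LPCs. The ratio was then 0.0348 for Isg15 (0.0124 to 0.0788) and 0.0156 for Ifi44 (0.00418 to 0.0409). Irf1 and Trim25 differed least, with log2 fold changes of -0.63 ± 0.31 and -0.41 ± 0.4 and adjusted p of 0.291 and 0.579 from edgeR.

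The number of genes called in Hep_LPCs against NPC_LPCs varied with the test and the libraries used. Of the 31 genes, DESeq2's Wald test called 28 lower, edgeR with all 6 libraries in the fit called 22 lower, and limma-voom called 0. Over all genes the same fits called 1499, 1274 and 5, both directions together. limma-voom had 19 of the 31 at an unadjusted p under 0.05, with no count over all genes to set beside it. The genes called also changed with the library left out. A group then held 1 library, so only sizes are given here for those fits. The median log2 fold change was -4.41 without NPC_LPCs replicate 1 and -2.7 without NPC_LPCs replicate 2. It was -4.01 without Hep_LPCs replicate 1 and -4.0 without Hep_LPCs replicate 2.

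In Bec_LPCs against NPC_LPCs, 8 of the 31 genes fell and 0 rose (25.8%), against 6.44% lower and 4.88% higher of all 12868 genes tested, by edgeR's quasi-likelihood test. The smallest adjusted p were those of Stat2 (log2 fold change -2.9 ± 0.31, adjusted p = 0.00772), Ifit2 (-1.37 ± 0.18, 0.0125), Samd9l (-1.79 ± 0.33, 0.0302) and Isg20 (-1.2 ± 0.24, 0.0341). Bst2, Herc6, Irf7 and Rtp4 also fell, with log2 fold changes of -2.14, -2.34, -4.95 and -4.32 and adjusted p of 0.0388 to 0.0454. Ifi27 was the gene with a positive log2 fold change, 0.53 ± 0.25, which did not pass (adjusted p = 0.208, edgeR). The libraries did not overlap for 28 genes that were lower and for Ifi27, against 33% lower and 37.0% higher of all genes.

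Over the 31 genes the median log2 fold change of Bec_LPCs against NPC_LPCs was -2.43, against 0.01 over all genes. The median was -1.18 without NPC_LPCs replicate 2 and -3.22 without NPC_LPCs replicate 1. It was -2.61 without Bec_LPCs replicate 1 and -2.34 without Bec_LPCs replicate 2. Leaving out either Hep_LPCs library, which changes only the spread, kept it at -2.43. The genes called changed with the library left out, and a group then held 1 library, so those calls are not given here. DESeq2's Wald test called 27 of the 31, against 2898 of all genes, both directions together.

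In Bec_LPCs against Hep_LPCs, 5 genes rose and 1 fell, shares of 16.1% and 3.23%, against 16.1% higher and 17.2% lower of all genes. In this fit, which also held the NPC_LPCs libraries, the number of genes called was near the share of all genes in one direction and below it in the other. Whether that reading held across fits cannot be told, since the other fits gave no share of all genes per direction. With the Bec_LPCs and Hep_LPCs libraries alone, edgeR called 16 genes higher and 1 lower of 30 tested. Of all genes, that fit called 5010, against 4293, both directions together, with no share per direction to set beside the 16. Ifi27 rose most clearly (log2 fold change 3.89 ± 0.29, adjusted p = 0.00153), followed by Irf9 (1.39 ± 0.33, 0.0256), Bst2 (1.71 ± 0.45, 0.0337), Parp14 (2.76 ± 0.76, 0.0381) and Usp18 (3.18 ± 0.91, 0.043), all by edgeR. Isg20 fell by 2.15 on the log2 scale (SE 0.24, edgeR adjusted p = 0.00397). The libraries did not overlap for 23 genes that were higher and 4 that were lower in Bec_LPCs, against 40.8% and 36.8% of all genes, and the median log2 fold change was 1.71, against 0.03 over all genes, or 1.67 with genes at 0 reads set to their bounds.

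Ifit1 was at least 14.4-fold and Sp100 at least 2.75-fold higher in Bec_LPCs than in Hep_LPCs, against the floor of 3 reads per library. Isg15 had 75 reads in Bec_LPCs, against 6 in Hep_LPCs, a ratio of 9.02 (95% counting interval 3.96 to 25.4). Stat2, Irf7, Herc6 and Cmpk2 overlapped between these groups. With the 4 libraries of this contrast alone in the fit, edgeR called 17 of the 30 genes tested, 16 of them higher. Over all genes that fit called 5010, both directions together. As 1 library was left out, the median log2 fold change ran from 1.6 to 1.86. The genes called changed with the library left out, and a group then held 1 library, so those calls are not given here. The 3 comparisons share libraries, so their agreement on a gene is not independent.

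**Figure D4:**
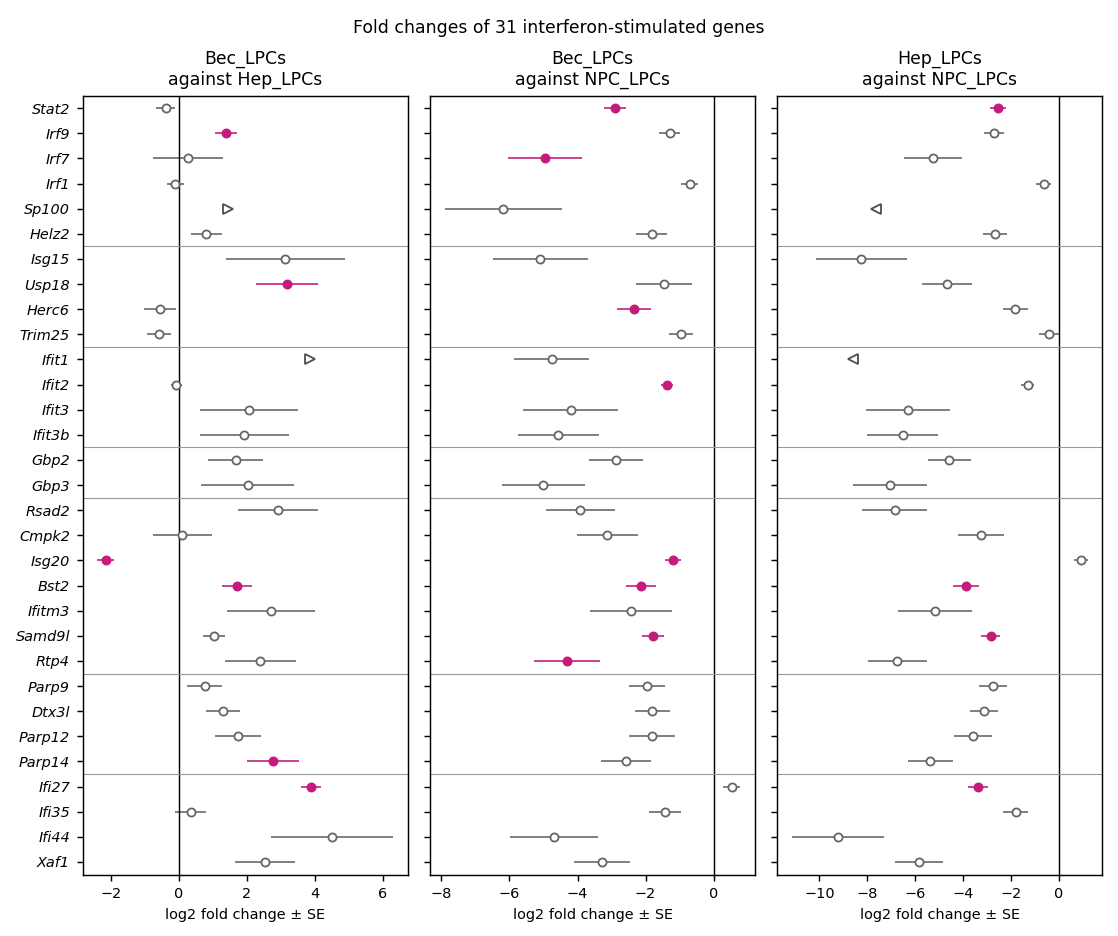
Log2 fold change ± SE from edgeR for each gene in the 3 comparisons, with filled symbols for genes past the adjusted p threshold and open symbols for the rest; triangles are bounds against the floor of 3 reads for Sp100 and Ifit1, at 0 reads in Hep_LPCs. In the panels against NPC_LPCs nearly all symbols lie left of 0, apart from Isg20 in Hep_LPCs and Ifi27 in Bec_LPCs, and the longest error bars belong to genes with wide NPC_LPCs replicate ratios.

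Levels and promoters were also set side by side. The 10 genes with a response element core had a median NPC_LPCs replicate ratio of 9.39, with a range of 1.55 (Stat2) to 20.5 (Isg15). The 16 genes with a promoter entry and no such core had a median of 2.67, with a range of 0.984 (Ifit2) to 27.8 (Sp100). Their median log2 fold changes were -6.41 with and -2.78 without the core in Hep_LPCs against NPC_LPCs, -4.06 and -1.81 in Bec_LPCs against NPC_LPCs, and 2.04 and 0.58 in Bec_LPCs against Hep_LPCs. The 2 sets of genes overlapped widely, and this is a description with no test.

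Interferon genes were at or near 0 reads, while receptors and kinases had reads in every library. Of 20 interferon genes, 17 had 0 reads in all 6 libraries, and the whole list summed to 0 and 3 reads in Bec_LPCs, 2 and 1 in Hep_LPCs and 0 and 0 in NPC_LPCs. Ifnb1, encoding interferon beta, had 1 read, in Bec_LPCs replicate 2. A count of 0 allows up to 0.173 CPM in NPC_LPCs replicate 1 and 0.152 CPM in replicate 2 for each gene. Lower levels could therefore go undetected at this depth. Of 9 receptor and kinase genes, 0 differed by 2-fold between the NPC_LPCs replicates. Of all genes, 5.99% were higher and 6.57% lower in replicate 2, so 0 of 9 is near the share.

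The receptor chain Ifnar1 had 103 and 106 CPM in Bec_LPCs, 57.9 and 61.4 CPM in Hep_LPCs, and 87.5 and 102 CPM in NPC_LPCs. Its partner Ifnar2 had 23.3 and 23.7 CPM in Bec_LPCs, 46.5 and 38.2 CPM in Hep_LPCs, and 75.3 and 64.9 CPM in NPC_LPCs. By edgeR 0 of the 9 receptor and kinase genes passed in Hep_LPCs against NPC_LPCs, where 3 had an unadjusted p under 0.05. In Bec_LPCs against NPC_LPCs, Ifnar2 (log2 fold change -1.58, adjusted p = 0.0101), Il10rb and Jak2 fell and 0 rose. That is 3 of 9 lower, against 6.44% of all genes. In Bec_LPCs against Hep_LPCs, Ifnar1 and Jak1 rose, and Ifnar2, Ifngr2 and Jak2 fell. The shares there were 2 of 9 higher and 3 of 9 lower, against 16.1% and 17.2% of all genes.

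Among other factors of the pathway, Irf2 and Irf5 fell in Bec_LPCs against NPC_LPCs, with log2 fold changes of -1.01 and -2.05 and edgeR adjusted p of 0.0454 and 0.0342. Of the ISG15 conjugation enzymes, the activating enzyme Uba7 and the conjugating enzyme Ube2l6 were 2.62 and 4.91 times higher in NPC_LPCs replicate 2 than in replicate 1. Ube2l6 fell in Bec_LPCs against NPC_LPCs (log2 fold change -3.71 ± 0.74, edgeR adjusted p = 0.0354).

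**Figure D5:**
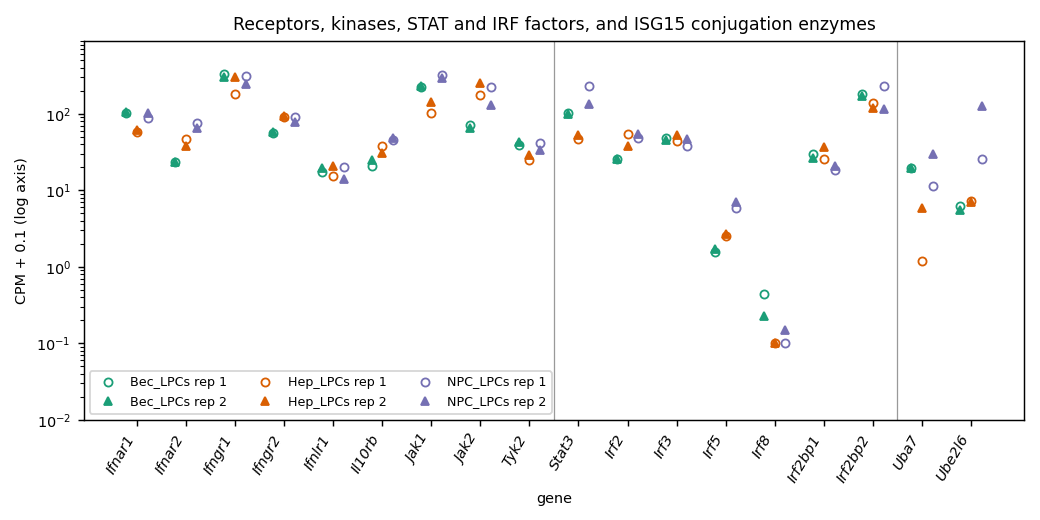
Level in CPM + 0.1 (log axis) of the receptors and kinases, further STAT and IRF genes, and the ISG15 conjugation enzymes in each library; open circles are replicate 1 and filled triangles replicate 2. The NPC_LPCs symbols of Ube2l6 lie wide apart (25.8 and 127 CPM), while those of Ifnar1, Ifnar2 and Jak1 nearly coincide.

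Inhibitors of the pathway passed the test only as lower levels in Bec_LPCs, with 2 of 8 lower against NPC_LPCs (6.44% of all genes) and 4 of 8 lower against Hep_LPCs (17.2% of all genes), and 0 higher in either. Of the 8 genes, 0 passed in Hep_LPCs against NPC_LPCs, with 1 at an unadjusted p under 0.05 by edgeR. Socs3, a feedback inhibitor of JAK kinases, fell in Bec_LPCs against both other groups, with log2 fold changes of -2.86 against Hep_LPCs and -2.56 against NPC_LPCs, while the phosphatases Ptpn6 and Ptpn2 fell against Hep_LPCs. Trex1, a DNA exonuclease, was called in both contrasts but had 0 reads in both Bec_LPCs libraries and 237 to 539 reads in every other library. Whether its counting differed between the tables was not tested.

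Other interferon-stimulated genes, on a list of 46, were higher in NPC_LPCs replicate 2 as well: 28 of 41 tested were at least 2-fold higher than in replicate 1 and 1 was lower, against 5.99% and 6.57% of all genes. In Hep_LPCs against NPC_LPCs 3 of 39 tested fell, the DNA-sensor relatives Ifi203 and Mndal and the GTPase Gbp9 (log2 fold changes -5.86, -3.23 and -5.05), against 0.428% of all genes, and 0 rose. In Bec_LPCs against NPC_LPCs 11 of 41 fell, against 6.44% of all genes, and 0 rose. The smallest adjusted p were those of Ifitm2, Mndal, Ifi203 and Lgals9. In Bec_LPCs against Hep_LPCs 7 of 41 rose and 3 fell, near or below the 16.1% higher and 17.2% lower of all genes. Gbp9 rose while Ifitm2, Lgals9 and Mndal fell.

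Nucleic acid sensors and antigen presentation gave the other lists. Of 13 sensor genes tested, 10 were 2-fold higher in NPC_LPCs replicate 2 than in replicate 1 and 1 was lower, against 5.99% and 6.57% of all genes. The 2'-5' oligoadenylate synthetases Oas3 and Oas1a fell in both Hep_LPCs (log2 fold changes -7.71 and -6.54) and Bec_LPCs (-5.55 and -4.87) against NPC_LPCs, with 1 to 5 reads of each in the Hep_LPCs libraries. Of the 13 sensor genes, 2 fell in Hep_LPCs and 4 in Bec_LPCs, against 0.428% and 6.44% of all genes. Sting1, the adaptor of DNA sensing, had 31.8 and 29.7 CPM in Bec_LPCs, 0.0585 and 0.178 CPM in Hep_LPCs (1 and 3 reads), and 9.93 and 66.1 CPM in NPC_LPCs. Of 10 genes of MHC class I presentation, 3 were higher by 2-fold in NPC_LPCs replicate 2 than in replicate 1, against 5.99% of all genes, and the list summed to 1072 and 1037 CPM in Bec_LPCs, 1109 and 921 CPM in Hep_LPCs, and 5815 and 5318 CPM in NPC_LPCs. H2-D1, H2-K1 and B2m fell in Hep_LPCs against NPC_LPCs, with log2 fold changes of -2.56, -3.24 and -2.36. That is 3 of 10, against 0.428% of all genes. Of 2 genes tested among markers of the interferon gamma response, Nos2 fell in Bec_LPCs against NPC_LPCs, and both Nos2 and Cxcl10 fell in Bec_LPCs against Hep_LPCs. The shares of all genes lower in these contrasts were 6.44% and 17.2%.

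Markers of other cell types were read beside these results. The 13 leukocyte markers summed to 80.0 and 75.1 CPM in Bec_LPCs, 121 and 55.2 CPM in Hep_LPCs, and 248 and 74.9 CPM in NPC_LPCs, and the sum was the lower of its pair in NPC_LPCs replicate 2. Most of the NPC_LPCs sum was Cd14, with 161 and 52.7 CPM, and Cd68, with 83.9 and 20.9 CPM. Ptprc, Itgam and Adgre1 had 2 and 5, 2 and 3, and 0 and 1 reads in NPC_LPCs replicates 1 and 2, which were not lower in replicate 2. Cd3e, Clec4f, Timd4, Siglech and Nkg7 had 0 reads in all libraries, and Ptprc had 1 to 18 reads. The 7 stellate and fibroblast markers summed to 171 and 198 CPM in Bec_LPCs, 14.4 and 9.02 CPM in Hep_LPCs, and 4.16 and 16.9 CPM in NPC_LPCs, and Lrat had 0 reads throughout. The 6 endothelial markers summed to 2.66 and 3.04 CPM in Bec_LPCs, 7.55 and 6.29 CPM in Hep_LPCs, and 2.19 and 3.71 CPM in NPC_LPCs. The 6 biliary markers summed to 4209 and 3547 CPM in Bec_LPCs, 5029.7 and 2332 CPM in Hep_LPCs, and 10004 and 4911 CPM in NPC_LPCs. What these markers contribute to the levels of interferon-stimulated genes was not tested.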

How the data were processed

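Polyadenylated RNA was sequenced from 6 libraries with a stranded, paired-end kit, per the labels' protocols. The submitters' processing notes name HISAT2, HTSeq, Trimmomatic, Cufflinks and DESeq, with the build mm10. Versions, settings and the strand option were not given in the sources used here. For every library the authors deposited a table of whole-number counts per gene symbol and, for Hep_LPCs and NPC_LPCs also FPKM, scaled for length and depth by the authors. The Bec_LPCs tables had 14 rows without a name (44 and 41 reads, 0.000191% and 0.000181% of counts), which were left out. Older symbols were updated with RefSeq synonyms, giving 20573 shared genes (19763 as deposited) that held 95.3% to 99.4% of counts.

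Samples were grouped by title. For Hep_LPCs against NPC_LPCs the model held those 4 libraries, and for both Bec_LPCs contrasts it held all 6. After filterByExpr and TMM scaling, p-values of the quasi-likelihood test in edgeR (robust, two-sided) were adjusted by Benjamini-Hochberg over all genes (edgeR 4.0.16, limma 3.58.1, R 4.3.3). All 31 members passed the filter, with Sp100 and Ifit1 at 0 reads in Hep_LPCs. Bounds used a floor of 3 reads per library (0.127 to 0.178 CPM). Intervals and floors cover counting error only. Gene positions are from GENCODE M21, promoters from RefSeq. Near-identical copies were those of at least 95% identity over 200 bases. Alternatives were DESeq2 1.42.0 (size factors, Wald test), library size alone, other filters, limma-voom, limma on FPKM, removal of the 50 highest genes, a replicate block, other libraries in the fit, symbols as deposited and each library left out.

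Members and lists were chosen with earlier results of these data known. Named with values in each library were a fixed core of members, every member called, and those with the largest and smallest NPC_LPCs replicate ratio per role; of other lists, up to 4 called genes with the smallest adjusted p, plus Ifnar1, Ifnar2 and Ifnb1. Some items are not reported here. Uba7 and the cell type markers printed beyond this were chosen after their values were seen.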

Additional observations from a re-analysis of the deposited data

How the results depend on the processing

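Every median log2 fold change over the 31 genes kept its direction under the alternatives run. It ranged from -4.41 to -2.65 in Hep_LPCs against NPC_LPCs, from -3.22 to -1.18 in Bec_LPCs against NPC_LPCs and from 1.37 to 1.89 in Bec_LPCs against Hep_LPCs. The number of genes called was less stable, and the cause was not tested. In Hep_LPCs against NPC_LPCs it was 2 with library size alone, 28 with DESeq2's Wald test, 0 with limma-voom, 22 with all 6 libraries in the fit and 0 with limma on log2(FPKM + 1), against 4 in edgeR as reported. Over all genes, both directions together, these 5 fits called 80, 1499, 5, 1274 and 9, against 95. limma-voom had 19 and limma on log2(FPKM + 1) had 27 of the 31 at an unadjusted p under 0.05. In Bec_LPCs against NPC_LPCs the number called was 27 with DESeq2's Wald test and 5 with 4 libraries in the fit, against 8. All genes gave 2898 and 2492, against 1457. In Bec_LPCs against Hep_LPCs it was 14 with DESeq2's Wald test and 17 with 4 libraries in the fit, against 6. All genes gave 5401 and 5010, against 4293. The ranges of calls that follow come from fits in which a group held 1 library. They are not set against all genes, so nothing is concluded from them. Leaving out 1 library gave 0 to 26 calls in Hep_LPCs against NPC_LPCs, 0 to 26 in Bec_LPCs against NPC_LPCs and 1 to 19 in Bec_LPCs against Hep_LPCs; a lone sample was then assumed to vary like the other group.

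The labels do not say whether equal replicate numbers pair libraries across groups. Correlations of replicate differences were -0.06 for Bec_LPCs with Hep_LPCs, 0.12 for Bec_LPCs with NPC_LPCs and -0.03 for Hep_LPCs with NPC_LPCs. Each group gave a single difference per gene, so these values cannot decide the question. With the number as a replicate block, edgeR called 11 genes in Hep_LPCs against NPC_LPCs, 4 in Bec_LPCs against NPC_LPCs and 7 in Bec_LPCs against Hep_LPCs. Over all genes it then called 126, 770 and 3389, both directions together.

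Single genes reversed in few settings. In Hep_LPCs against NPC_LPCs, the log2 fold change of Trim25 ran from -0.78 to 0.11 as 1 library was left out, the highest value without NPC_LPCs replicate 2. In Bec_LPCs against NPC_LPCs, Usp18 ran from -2.32 to 0.56 and Ifitm3 from -3.35 to 0.19, again highest without NPC_LPCs replicate 2. In Bec_LPCs against Hep_LPCs, Irf1 and Ifit2 had 0.08 and 0.1 with library size alone. There, Irf7 ran from -0.12 (without Hep_LPCs replicate 2; -0.05 without Bec_LPCs replicate 1) to 0.82. Cmpk2 ran from -0.05 (without Hep_LPCs replicate 1; -0.03 without Bec_LPCs replicate 1) to 0.27. Depth limits genes at 1 to 5 reads in Hep_LPCs, where a count of 0 allows up to 0.178 CPM.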

Other observations

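A few interferon-inducible genes outside the 31 had higher CPM in Hep_LPCs than in Bec_LPCs; they were picked after their values were seen. Cxcl10, a chemokine that attracts T cells, had 0.717 and 1.16 CPM in Bec_LPCs, 14.5 and 17.9 CPM in Hep_LPCs, and 2.25 and 31.2 CPM in NPC_LPCs. It fell in Bec_LPCs against Hep_LPCs (log2 fold change -4.1 ± 1.19, edgeR adjusted p = 0.0447). Oasl1, an inhibitor of Irf7 translation in mouse, had 3.88 and 3.13 CPM in Bec_LPCs, 24.9 and 49.4 CPM in Hep_LPCs, and 1.79 and 20.3 CPM in NPC_LPCs. It did not pass in Bec_LPCs against Hep_LPCs (log2 fold change -3.4 ± 1.06, edgeR adjusted p = 0.0546). Both genes, like Isg15, were higher in NPC_LPCs replicate 2 than in replicate 1, with replicate ratios of 13.8 for Cxcl10 and 11.3 for Oasl1.

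The NPC_LPCs replicates also differed in epithelial genes. The biliary keratin genes Krt7 and Krt19 were 11.8 and 2.42 times higher in replicate 2 than in replicate 1, and Epcam had 2 reads in replicate 1 and 12 in replicate 2. Sox9, a biliary and progenitor factor, had a ratio of 0.311. These are values of 2 libraries, with no test.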
